A study of Mus musculus with 2 samples.

Results

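Chromatin accessibility was measured at 9 genes that set how readily a cell dies after damage: Trp53, which encodes p53, its inhibitors Mdm2 and Mdm4, the death genes Bbc3, Pmaip1 and Bax, and the survival genes Bcl2, Mcl1 and Bcl2l1. The genes were picked by name, 9 of 21884 annotated protein-coding genes. Single-cell ATAC-seq was run on hematopoietic stem cells (HSCs) sorted from C57BL/6 mouse bone marrow. In this assay the Tn5 transposase cuts open DNA, and the fragments of each nucleus are then given a common barcode. The sorted cells were Sca-1+, c-kit+ and CD150+, lacked the lineage markers (Lin-) and were IL-7Rα-, CD34-, CD48- and Flt3-. There was 1 library from 10-week-old mice (young) and 1 library from 20-month-old mice (aged). The labels give no treatment, the mice were female, and the number of mice pooled in each is not given in the sources used here. With 1 library per age there is no replicate and no test. Each difference below is a comparison of these libraries, and each 95% interval covers counting error only, so that age and library cannot be told apart.

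p53 is a transcription factor that is held low by Mdm2, a ubiquitin ligase, and restrained by the related Mdm4. When DNA is damaged it is released and switches on genes such as Bbc3 (PUMA) and Pmaip1 (NOXA), whose BH3-only proteins bind the survival proteins Bcl2, Mcl1 and Bcl-xL (the product of Bcl2l1). Once these guards are occupied, Bax opens the outer membrane of the mitochondrion and the cell dies. In HSCs this balance is known to decide between survival and loss after stress, and Mcl1 is needed for HSCs to persist.

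The deposited table of barcodes called 5028 young and 3694 aged cells, of which 4887 and 3405 had 3000 to 20000 fragments in peaks and were used. They held 50069575 and 38663214 fragments, 69.2% and 67.6% of them in a common set of 164560 peaks that was called here, and values are given as fragments per 1000000 fragments in these peaks (FPM). The libraries differed in fragment length, with 59.8% of young and 55.0% of aged fragments shorter than 1 nucleosome, and in the median TSS enrichment, 5.78 and 5.30. Only 26 cell barcodes occurred in both libraries. Promoters of HSC markers were open in both (summed 185 and 191 FPM over 10 genes), Slamf1, Tek and Hoxb5 being higher in aged at log2 0.43, 0.44 and 0.28, whereas the T-cell promoters of Cd3e, Cd3d and Cd3g and the erythroid promoters of Hba-a1 and Ermap were each at or below 0.837 FPM in both. The summed promoters of the markers were 33.1 and 33.6 FPM for B cells (6 genes), 16.4 and 17.2 for T cells (6), 48.8 and 46.0 for erythroid cells (6), 141 and 129 for megakaryocytes (6) and 26.3 and 25.5 for granulocytes and monocytes (8), in young and aged, and no marker was at 0. Fewer open cells and less signal per cell are told apart only as far as single cells are counted below, and the part of cell composition or fragment length in the results was not tested.

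The promoters, taken as the annotated 5′ end of each gene with 1 kb on either side in mm10, ranged widely in accessibility. Bcl2l1 had the most open promoter, at 63.7 FPM in young HSCs and 60.1 in aged ones (chr2:152830728-152832728). Trp53 followed at 52.5 and 50.4 FPM (chr11:69579359-69581359). Mcl1 had 48.6 and 45.4 FPM (chr3:95657788-95659788), Mdm2 46.8 and 46.2 FPM (chr10:117709758-117711758) and Bcl2 42.1 and 42.3 FPM (chr1:106713274-106715274). All 5 lay at or above the 82.5th percentile of all protein-coding promoters, Bcl2 being the lowest of them. The death genes were lower, between the 45.3rd percentile of Bbc3 and the 60.2nd of Bax: Bax at 24.1 and 21.9 FPM (chr7:45465898-45467898), Pmaip1 at 19.1 and 19.7 FPM, and Bbc3 at 11.5 and 10.1 FPM (chr7:16307393-16309393). Mdm4 was lowest at 4.79 and 4.63 FPM (chr1:133029561-133031561). All windows have the same length, so these levels can be set side by side. In young HSCs, neighbours in this order had separate counting intervals except Trp53 with Mcl1 and Mcl1 with Mdm2. In aged HSCs the intervals of Trp53 and Mdm2, Mdm2 and Mcl1, Mcl1 and Bcl2, and Bax and Pmaip1 overlapped.

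**Figure D1:**
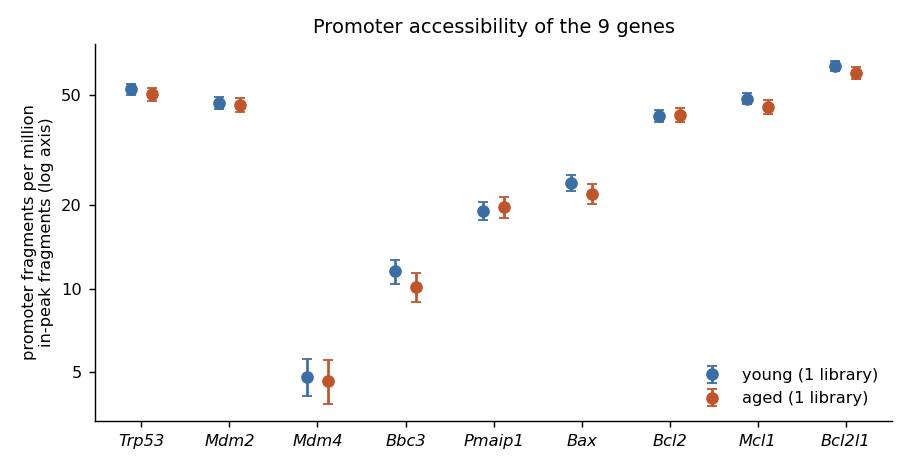
Promoter accessibility in FPM (log axis) for the 9 genes, in the young and the aged library, with exact Poisson 95% intervals. The levels run from 4.63 FPM at Mdm4 to 63.7 FPM at Bcl2l1, and young and aged points lie close together at every gene.

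The 2 weakest promoters stood away from the open chromatin of their genes. At Mdm4 the window held a small peak 595 bp into the gene, while 4 coding transcripts start 5145 to 5223 bp downstream, inside a peak of 35.4 FPM in young HSCs and 32.3 in aged ones (chr1:133024966-133026014). At Bbc3 the window held little of the open chromatin, and near the coding starts 1223 and 2062 bp into the gene lay peaks of 16.4 and 15.5 FPM (chr7:16309332-16309705) and 19.4 and 17.3 FPM (chr7:16309931-16310456). With all coding transcript starts included, Mdm4 reached 36.7 and 34.3 FPM at its downstream start and Bbc3 55.3 and 51.7 FPM over its starts. At Trp53 3 peaks overlapped the window, centred -1059, -36 and 1056 bp from its start. The first lay in an untranslated region of Wrap53, a telomerase RNA-binding gene that runs the other way from 104 bp upstream of Trp53, so the Trp53 window cannot be told apart from the Wrap53 promoter. Mdm2 carried a second peak of 13.1 and 13.2 FPM centred 554 bp into the gene, next to its main promoter peak of 34.1 and 33.3 FPM. Mdm2 is known to have a second, p53-responsive promoter in its first intron, to which this peak was not matched.

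**Figure D2:**
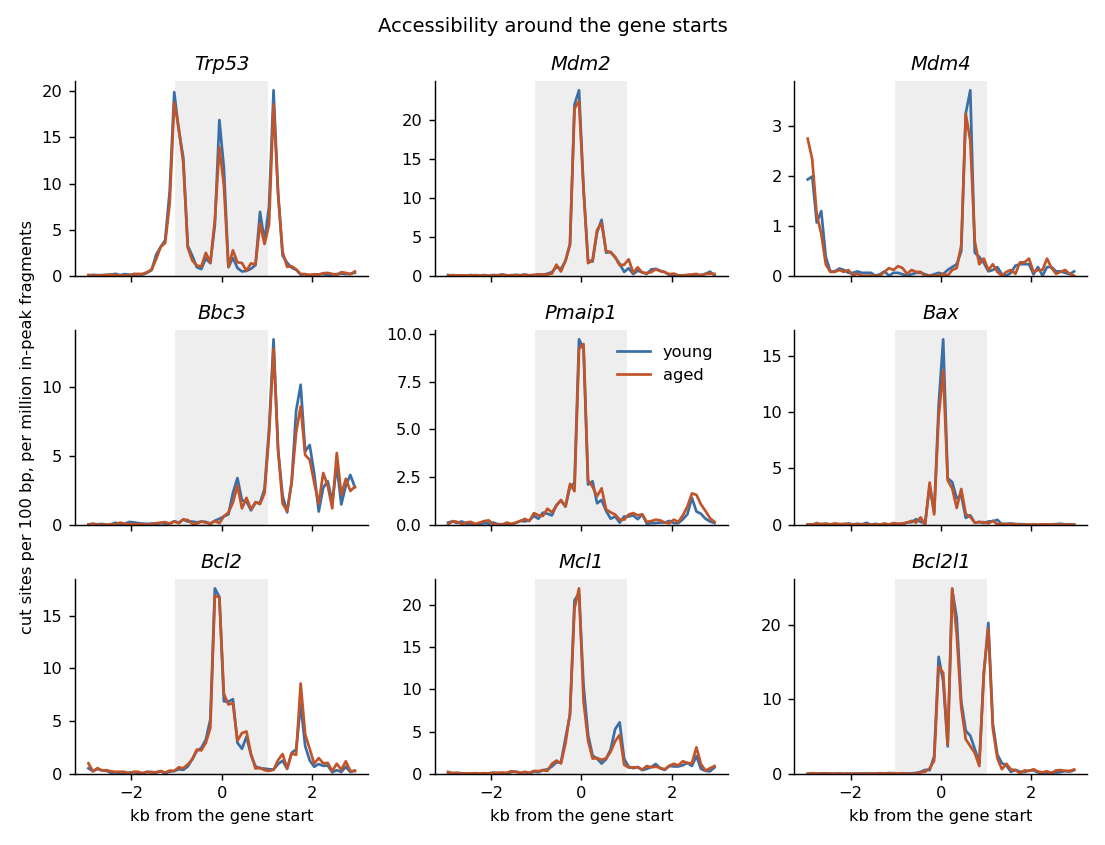
Tn5 cut sites in bins of 100 bp, scaled by in-peak fragments as the FPM values are, from 3 kb before to 3 kb after each gene start, for the young and the aged library. The grey band is the promoter window of 1 kb on either side. The highest bin was the same in both libraries at 6 genes, for example 250 bp from the start at Bcl2l1 and 1150 bp at Bbc3, and differed at Trp53, Mdm4 and Pmaip1.

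No member promoter differed between the ages by 1.2-fold in the main values, although Bbc3 passed it under some alternatives. The largest difference was at Bbc3, where aged HSCs had 265 fragments and young HSCs 400, a log2 ratio of -0.19 (95% interval -0.42 to 0.04). It was -0.48 (-0.89 to -0.11) with each cell thinned to 3000 in-peak fragments, -0.35 (-0.72 to -0.01) with short fragments alone, and -0.09 (-0.31 to 0.13) with all barcodes called as cells. Over all coding starts of Bbc3 it was -0.10 (-0.20 to 0.01), from 1353 aged and 1915 young fragments. Bax followed at -0.13 (-0.29 to 0.02), from 574 and 834 fragments. Mcl1 stood at -0.10 (-0.21 to 0.01), from 1186 and 1685 fragments, and Bcl2l1 at -0.08 (-0.18 to 0.01), from 1571 and 2207. These 4 genes lay furthest below 0. Trp53, with 1317 and 1818 fragments, was at -0.06 (-0.16 to 0.04), Mdm4 at -0.05 (-0.40 to 0.30) and Mdm2 at -0.02 (-0.13 to 0.09). Above 0 were Bcl2 at 0.01 (-0.10 to 0.12) and Pmaip1 at 0.05 (-0.12 to 0.21). All 9 intervals included 0, where 11.7% of all promoters had intervals above 0 and 25.1% below it. The median over the 9 genes was -0.06, the same to 2 decimals as the median over the 14267 promoters with at least 200 fragments. All 9 genes passed that minimum, and 0 of 9 were called in either direction, where 8.94% of all promoters were at least 1.2-fold higher and 3.34% at least 1.2-fold lower in aged HSCs. Calls were rarer among promoters with many fragments. Of the 6032 with at least 2000, which include Bcl2l1, Trp53, Mcl1, Mdm2 and Bcl2, only 17 were higher and 64 lower. The absence of calls is therefore not read as a trait of these genes. The interval of Mdm4, with 121 and 166 fragments, holds values past the fold on both sides, so a difference of that size was not detectable in this window at this depth. At the downstream start of Mdm4, with 898 aged and 1273 young fragments, the ratio was -0.10 (-0.22 to 0.03), an interval that stays short of 1.2-fold. The share of fragments shorter than 1 nucleosome was lower in aged HSCs at all 9 promoters, as it was over all in-peak fragments (68.7% and 64.5%).

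**Figure D3:**
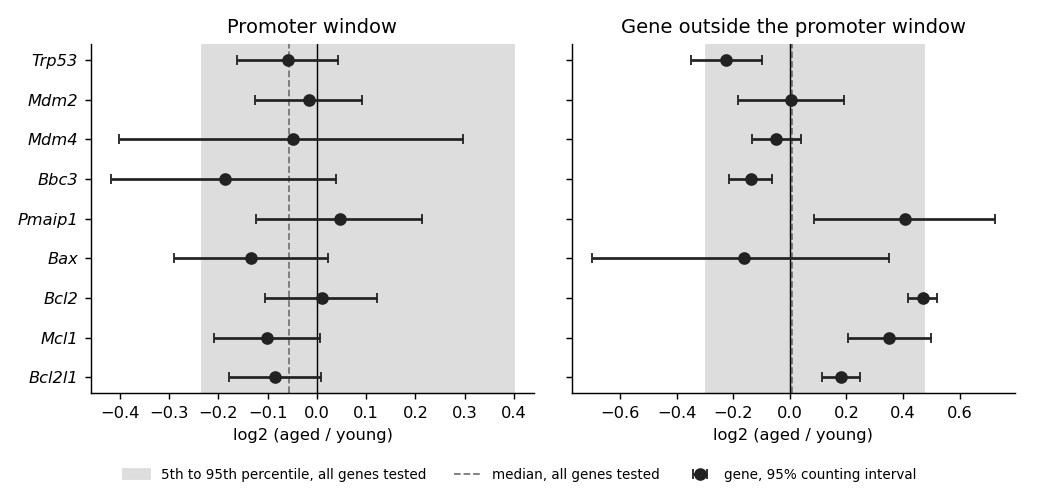
Log2 ratio of aged over young for the promoter window (left) and for the rest of the gene (right), with 95% counting intervals. The grey band spans the 5th to 95th percentile and the dashed line marks the median of all genes tested. Left, all 9 intervals include 0. Right, Bcl2, Mcl1, Pmaip1 and Bcl2l1 lie above 0, Trp53 and Bbc3 below it. At Mdm4, Bbc3, Bcl2 and Bcl2l1 the rest of the gene holds further coding starts.

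The promoter fragments were spread over many cells. After each cell was thinned to 3000 in-peak fragments, which left out 99 young and 134 aged cells, a Trp53 promoter fragment was found in 15.2% of 4788 young and 15.0% of 3271 aged cells. For Bcl2 the shares were 11.8% and 11.8%, and for Bcl2l1 17.2% and 16.9%. Bbc3 was seen in 3.49% and 2.51%, with overlapping exact binomial intervals. At Mcl1 alone, 1 of 9, the intervals did not overlap, at 13.95% (12.98 to 14.97) in young and 11.71% (10.63 to 12.86) in aged cells. Over all 14267 promoters tested, 3.79% were lower and 3.64% higher in aged cells with separate intervals. This did not hold at other depths: with 5000 fragments per cell the Mcl1 shares were 21.5% and 19.6% and without thinning 28.7% and 28.4%, with overlapping intervals in both. Over the 9 promoters a thinned cell had a fragment at 0.878 on average in young and 0.842 in aged cells, and 39.3% and 40.2% of cells had none. A cell without a fragment is not a cell with a closed promoter at this depth.

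The promoters of 4 members are shown because their sequence underlies part of the open window. In the 250 bases upstream of the start they hold 7 GC boxes at Bcl2, 2 at Bax, 1 at Mcl1, and 2 beside a CCAAT box at Mdm2. The windows of 1 kb on either side differ less, with 9 GC boxes at Bcl2, 7 at Bax, 7 at Mcl1 and 3 at Mdm2. CCAAT boxes in these windows number 3 at Bcl2, 2 at Bax, 0 at Mcl1 and 3 at Mdm2. Given are the 250 bases upstream of the RefSeq start in GRCm38.p6 (the mm10 assembly), 5′ to 3′ on the coding strand, with capitals for the GC box GGGCGG, the CCAAT box CCAAT and the TATA box TATAAA on either strand.
Mdm2 (chr10:117710759-117711008, minus strand): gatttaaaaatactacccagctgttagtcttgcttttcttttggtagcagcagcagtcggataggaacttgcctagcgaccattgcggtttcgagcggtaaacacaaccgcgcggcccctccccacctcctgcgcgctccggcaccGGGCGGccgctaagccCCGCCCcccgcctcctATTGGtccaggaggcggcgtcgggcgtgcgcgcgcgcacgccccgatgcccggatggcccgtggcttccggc
Bcl2 (chr1:106714291-106714540, minus strand): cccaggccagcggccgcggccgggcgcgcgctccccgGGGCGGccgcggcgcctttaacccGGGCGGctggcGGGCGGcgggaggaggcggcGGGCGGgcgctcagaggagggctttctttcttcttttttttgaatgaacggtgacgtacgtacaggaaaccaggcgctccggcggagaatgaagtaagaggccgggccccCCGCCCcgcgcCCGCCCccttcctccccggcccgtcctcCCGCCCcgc
Mcl1 (chr3:95658471-95658720, plus strand): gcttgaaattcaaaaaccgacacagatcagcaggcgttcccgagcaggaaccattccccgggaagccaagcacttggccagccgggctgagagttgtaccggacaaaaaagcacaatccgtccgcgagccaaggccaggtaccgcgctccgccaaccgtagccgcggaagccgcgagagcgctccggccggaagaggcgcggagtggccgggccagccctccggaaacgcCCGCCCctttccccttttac
Bax (chr7:45466899-45467148, minus strand): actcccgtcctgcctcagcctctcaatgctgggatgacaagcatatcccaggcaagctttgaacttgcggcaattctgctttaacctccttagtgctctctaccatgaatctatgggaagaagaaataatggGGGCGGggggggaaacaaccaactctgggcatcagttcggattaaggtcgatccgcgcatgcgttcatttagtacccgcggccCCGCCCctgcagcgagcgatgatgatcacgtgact
Trp53 to Wrap53 (chr11:69580256-69580358, plus strand of Trp53): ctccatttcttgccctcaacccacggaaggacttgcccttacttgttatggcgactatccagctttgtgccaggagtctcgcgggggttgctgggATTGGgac
The last line is the whole stretch between the divergent starts of Trp53 and Wrap53, and its capitals are a CCAAT box read on the other strand. Among all 32851 RefSeq promoters, 32.7% hold a GC box, 33.8% a CCAAT box and 12.4% a TATA box in these 250 bases, so the boxes are common. The p53 full site, 2 adjoining decamers of the p53 consensus with up to 13 bases between them and no mismatch, occurs in 0.0639% of these promoters. It was not found in the longer windows of 1 kb on either side of the start in the 8 members searched (Pmaip1 was not searched), which says only that these letters are not there.

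Outside the promoter windows the genes parted. Of the 8 members with at least 200 fragments there (Bax had fewer), 3 were at least 1.2-fold higher in aged HSCs, Bcl2, Mcl1 and Pmaip1, and 0 were lower, where 14.1% and 6.63% of all 14792 genes tested were. Over 12 alternatives Pmaip1 ran from 0.25, short of 1.2-fold, to 0.50. Bcl2l1 ran from 0.15 to 0.28, which is past 1.2-fold. With cells thinned to 3000 in-peak fragments, 1.61% of young and 1.83% of aged cells had such a Pmaip1 fragment, with overlapping intervals. Bcl2, Mcl1, Pmaip1 and Bcl2l1 had intervals above 0 and Trp53 and Bbc3 below it, as did 24.0% and 17.3% of all these genes. At Mdm4, Bbc3, Bcl2 and Bcl2l1 this part of the gene holds further coding starts. Over whole gene bodies, promoter included, only Bcl2 was past 1.2-fold among 9 members, against 9.85% of all gene bodies higher and 3.73% lower, and the median of the 9 bodies was 0.00 where that of all 16850 tested was -0.02.

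Bcl2, the founding survival gene of its family, held the clearest difference. Its body (chr1:106538178-106714274, minus strand, 176.097 kb) gathered 6442 fragments in young HSCs and 6580 in aged ones, or 1.06 and 1.43 FPM per kb, a log2 ratio of 0.44 (0.39 to 0.49). Without the promoter window the ratio was 0.47 (0.42 to 0.52), a 1.38-fold higher value, while the promoter itself stood at 0.01. The difference was spread over the whole gene: of 34 bins of 5 kb in the gene, 30 had at least 100 fragments, all 30 stood above 0, and 24 had intervals above 0, with a median of 0.52 and a range of 0.04 to 1.05. Of all 128926 such bins of the genome, 52.4% stood above 0 and 18.9% had intervals above 0. It was present in peaks (0.44, 0.37 to 0.51) and between peaks (0.51, 0.43 to 0.59), where all fragments of the genome outside peaks stood at 0.10. The 50 kb upstream of the gene, which hold the neighbour Kdsr, were at -0.03 (-0.10 to 0.03), and the 50 kb downstream at 0.25 (0.15 to 0.35). After thinning to 3000 in-peak fragments, 38.4% (37.0 to 39.8) of young and 50.8% (49.1 to 52.5) of aged cells had a fragment in the gene outside its promoter, and unthinned 64.9% and 78.4%. The share of all genes with separate intervals in this measure was not counted, so the separation is not read as particular to Bcl2. In the thinned cells the variance of the fragments per cell was 1.07 times the mean in young and 1.06 times in aged, with at most 6 in a cell. Without thinning it was 1.31 and 1.34 times the mean, with at most 9 and 10.

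Long genes as a class were more often higher than lower. Among the 2471 genes of 100 kb or longer, 26.2% were at least 1.2-fold higher and 0.486% at least 1.2-fold lower outside the promoter, with a median of 0.11, and Bcl2 lay at their 88.7th percentile against the 94.9th among genes of all lengths.

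**Figure D4:**
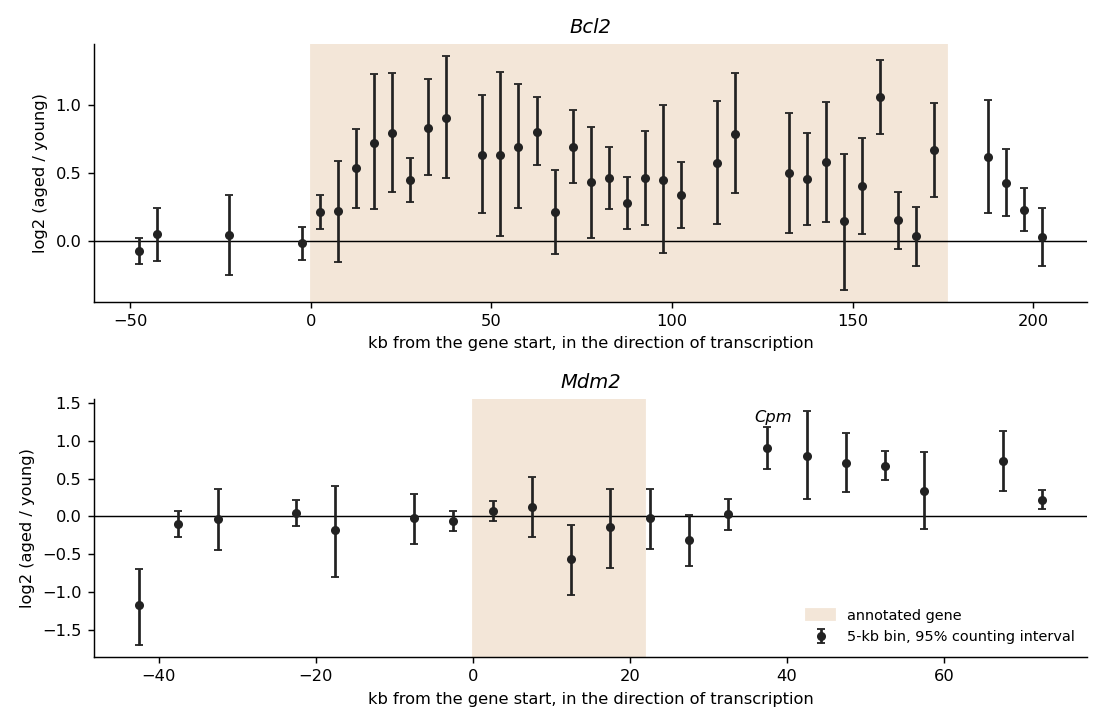
Log2 ratio of aged over young in 5-kb bins with at least 100 fragments along Bcl2 (top) and Mdm2 (bottom), from 50 kb before the gene to 50 kb after it, with 95% counting intervals; the shaded area is the annotated gene. All 30 bins tested in Bcl2 lie above 0 (median 0.52). Around Mdm2 the 6 bins with intervals above 0 lie downstream, along the neighbouring gene Cpm.

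All 11 peaks tested inside Bcl2 and outside its promoter window stood above 0, 8 with intervals above 0, and 3 were past 1.5-fold. Of all 66703 peaks tested, 47.0% stood above 0, 17.4% had intervals above 0 and 17.0% below it. The highest, in an intron shared with D630008O14Rik 158697 bp from the start, had 98 fragments in young HSCs and 191 in aged ones (2.83 and 7.30 FPM), a log2 ratio of 1.36 (1.01 to 1.73). The peak at 70554 bp had 142 and 181 fragments (0.75, 0.43 to 1.08) and that at 60557 bp 158 and 193 (0.69, 0.38 to 1.01). The peak with the most fragments inside the gene, at 25896 bp, had 13.4 FPM in young HSCs and 18.2 in aged ones (0.45, 0.26 to 0.64). These are weak elements beside the promoter peak of 40.2 and 40.5 FPM. The most open peak of the locus outside the promoter window, at the Kdsr start, had 71.2 and 67.6 FPM (-0.07, -0.16 to 0.01).

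Mcl1 and Bcl2l1 also had a promoter interval that included 0 and a higher value in the rest of the gene, smaller than that of Bcl2. Mcl1, a short-lived survival protein (chr3:95658788-95663176), had 776 fragments in young HSCs and 747 in aged ones outside the window, a log2 ratio of 0.35 (0.20 to 0.50) over 3.388 kb, and its whole body stood at 0.10 (-0.01 to 0.20). With cells thinned to 3000 in-peak fragments, 6.02% of young and 7.43% of aged cells had an Mcl1 fragment outside the window, with overlapping intervals. With 5000 fragments per cell the shares were 9.86% and 12.3%, with separate intervals. Over all genes this measure was not counted. An intron peak of Mcl1 inside the promoter window, 780 bp from the start, was lower in aged HSCs, with 296 and 172 fragments or 8.54 and 6.58 FPM (-0.37, -0.66 to -0.10). A peak in its untranslated region at 3332 bp had 121 and 131 fragments (0.52, 0.15 to 0.89). Bcl2l1, which encodes Bcl-xL (chr2:152780668-152831728, minus strand), had 3862 and 3306 fragments outside the window, a ratio of 0.18 (0.11 to 0.25). Of its 9 bins of 5 kb, 8 were above 0 and 3 had intervals above 0 (52.4% and 18.9% of all bins). The main intronic peak of Bcl2l1, at 42510 bp, was level at 38.7 and 38.0 FPM (-0.03, -0.15 to 0.09), while a weak intron peak at 21392 bp had 79 and 128 fragments (1.09, 0.69 to 1.53).

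The intronic peaks of Bcl2 and Bcl2l1 with the highest ratios are printed because they carry the largest differences inside member genes. Capitals mark matches on either strand. The letters searched were TGANTCA for the AP-1 motif, TGACNNNGC for CNC factors, which holds part of some AP-1 matches, and TGTGGT for the RUNX motif. For blood lineage factors AGATAA was searched for GATA and GAGGAAGT for PU.1, and for signalling factors TTCNNNGAA for STAT, TTGCNNAA for C/EBP and GAAANNGAA for the interferon element. Up to 300 central bases are given on the strand of the gene, in GRCm38.p6.
Bcl2 intron (chr1:106555427-106555726, minus strand): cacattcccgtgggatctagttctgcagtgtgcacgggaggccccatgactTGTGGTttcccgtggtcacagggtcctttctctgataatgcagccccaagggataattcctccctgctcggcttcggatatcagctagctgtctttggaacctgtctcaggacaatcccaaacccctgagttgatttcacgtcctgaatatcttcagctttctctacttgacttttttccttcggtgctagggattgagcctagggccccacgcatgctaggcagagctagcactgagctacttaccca
Bcl2l1 intron (chr2:152810186-152810485, minus strand): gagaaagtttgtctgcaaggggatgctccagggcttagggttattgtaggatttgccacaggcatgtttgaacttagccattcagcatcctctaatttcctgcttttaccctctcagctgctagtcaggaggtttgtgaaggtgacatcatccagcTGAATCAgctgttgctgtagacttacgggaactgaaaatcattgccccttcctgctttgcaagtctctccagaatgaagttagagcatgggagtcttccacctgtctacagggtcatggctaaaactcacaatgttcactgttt
The Bcl2 stretch holds a RUNX match. The Bcl2l1 stretch holds a match to the AP-1 letters with A at the centre, where N allowed any base, so this is a loose match. The Bcl2l1 stretch also holds 1 unmarked decamer of the p53 consensus, as do 9.80% of all peaks in their central 300 bases. RUNX matches occur in 28.0% and AP-1 matches in 12.2% of the central 300 bases of all 164560 peaks, so each is a description and not a site.

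Trp53 stood below 0 inside the gene without passing 1.2-fold (chr11:69580359-69591873). Outside its promoter window it had 1321 fragments in young HSCs and 853 in aged ones, or 3.63 and 3.10 FPM per kb, a log2 ratio of -0.22 (-0.35 to -0.10) at the 9.23rd percentile of all genes. The difference lay in peaks (-0.27, -0.41 to -0.13) and not detectably between them (-0.03, -0.33 to 0.27). An intronic peak 5653 bp from the start had 268 and 136 fragments (7.74 and 5.20 FPM), a ratio of -0.57 (-0.88 to -0.27), the second lowest of all member peaks. The flanks of 50 kb stood at -0.10 (-0.17 to -0.04) upstream and -0.13 (-0.20 to -0.07) downstream. The median was -0.09 over the 6032 promoters with at least 2000 fragments and 0.04 over all 500-bp bins tested, and neither is a like measure for a whole flank. The most open peak outside the window, 52525 bp downstream of the start and centred 106 bp from the start of the neighbour Fxr2, had 69.0 and 60.7 FPM (-0.19, -0.28 to -0.09). The central 300 bases of the intronic peak, with capitals for the same motifs, hold AP-1, CNC, RUNX, GATA and PU.1 matches. The AP-1 match has T at the centre, where N allowed any base.
Trp53 intron (chr11:69585862-69586161, plus strand): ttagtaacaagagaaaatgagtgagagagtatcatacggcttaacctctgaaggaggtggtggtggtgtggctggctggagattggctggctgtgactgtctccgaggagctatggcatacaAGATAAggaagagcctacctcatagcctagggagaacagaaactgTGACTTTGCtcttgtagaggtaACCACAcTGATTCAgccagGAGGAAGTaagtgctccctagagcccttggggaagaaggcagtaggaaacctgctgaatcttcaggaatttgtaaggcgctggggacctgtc
CNC matches are in 14.2%, GATA matches in 13.8% and PU.1 matches in 7.81% of all peaks.

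Taken over the whole gene outside the promoter window, the inhibitors of p53 had intervals that included 0. Mdm2 had 556 and 421 fragments (0.01, -0.18 to 0.19) and Mdm4 2550 and 1861 (-0.05, -0.14 to 0.04). Single stretches had intervals below 0, the 5-kb bins centred 12.5 kb into Mdm2 (-0.56, -1.04 to -0.11) and 7.5 kb into Mdm4 (-0.21, -0.34 to -0.08), as did 12.2% of all such bins. The Mdm4 bin holds its downstream coding starts and part of the peak there. That peak, the one with the most Mdm4 fragments outside the window, stood at -0.13 (-0.26 to -0.002). Of all peaks tested, 17.0% had intervals below 0. Local background was also subtracted, taken as the fragment density in the outermost 5 kb of each 50-kb flank. This left 27.5% of the young and 21.5% of the aged fragments of the Mdm4 body, which then stood at -0.41. At Mdm2 nothing was left, and the stretch used as background there held a Cpm intron peak. Downstream of Mdm2, however, the 50 kb that lie almost entirely within Cpm, a membrane carboxypeptidase gene that runs towards Mdm2 and ends just short of it, had 2614 fragments in young HSCs and 2530 in aged ones, a ratio of 0.36 (0.28 to 0.44). Of 10 bins of 5 kb there, 8 were above 0 and 6 had intervals above 0, against the 52.4% and 18.9% of all bins. The Cpm promoter itself was at 19.9 and 23.7 FPM (0.26, 0.10 to 0.42). The highest ratio of all member peaks was in a Cpm intron 37883 bp from the Mdm2 start, with 66 fragments in young HSCs and 164 in aged ones (1.91 and 6.27 FPM), 1.71 on the log2 scale (1.30 to 2.15). A second Cpm intron peak at 52050 bp had 169 and 253 fragments (0.98, 0.70 to 1.28), and another at 33678 bp was lower, with 196 and 111 (-0.41, -0.76 to -0.07). The central 300 bases of the highest peak are shown on the Mdm2 strand and hold a RUNX match in capitals.
Cpm intron near Mdm2 (chr10:117672725-117673024, minus strand): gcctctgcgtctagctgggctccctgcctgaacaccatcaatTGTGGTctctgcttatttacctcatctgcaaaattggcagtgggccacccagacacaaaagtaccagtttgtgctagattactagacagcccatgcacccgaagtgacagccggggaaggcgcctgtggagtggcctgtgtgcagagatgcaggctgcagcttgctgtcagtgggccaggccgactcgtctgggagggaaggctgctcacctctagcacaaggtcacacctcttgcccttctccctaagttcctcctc
Upstream of Mdm2 the 50 kb stood at -0.08 (-0.16 to 0.00).

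Among the death genes, Bbc3 leaned lower and Pmaip1 higher, and Bax had too few fragments outside its promoter. Bbc3 (chr7:16308393-16318205) had 3364 and 2307 fragments outside its window, 11.02 and 10.01 FPM per kb, a ratio of -0.14 (-0.22 to -0.06). This part holds the coding starts 1223 and 2062 bp into the gene, so it includes promoter signal. Over all coding starts of Bbc3 the ratio was -0.10 (-0.20 to 0.01). Of the 7 Bbc3 peaks tested in the gene outside the window, 3 were above 0. Only 1 had an interval below 0, the peak at 5691 bp with 751 and 498 fragments (-0.19, -0.35 to -0.02). Its upstream flank stood at -0.09 (-0.12 to -0.05). The median was -0.09 over the 6032 promoters with at least 2000 fragments and 0.04 over all 500-bp bins tested. Neither is a like measure for the sum over 50 kb. The most open peak in the upstream flank, in a Ccdc9 intron 623 bp from the start of that gene, had 120 and 115 FPM (-0.06, -0.13 to 0.00). Pmaip1 (chr18:66458533-66465565) had 166 and 166 fragments outside its window (0.41, 0.09 to 0.72), and its whole body stood at 0.20 (0.02 to 0.37). Neither flank of Pmaip1 had an interval away from 0, at -0.05 (-0.16 to 0.05) upstream and -0.11 (-0.24 to 0.02) downstream. Bax (chr7:45461697-45466898, minus strand) had only 79 and 53 fragments outside its window (-0.16, -0.70 to 0.35), and its whole body, mostly promoter, was at -0.17 (-0.33 to -0.00). The lowest member peak was 19164 bp from the Bax start, in a noncoding exon of Gys1, with 157 and 77 fragments (-0.61, -1.03 to -0.22).

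Over the genes and their 50-kb flanks, 131 of 240 peaks had at least 200 fragments. Of these, 6 (4.58%) were at least 1.5-fold higher and 1 (0.763%) at least 1.5-fold lower in aged HSCs, against 5.92% and 2.18% of all 66703 peaks tested. With so few peaks past the fold these shares are not read as a difference from the background. The 6 higher peaks were 3 in Bcl2, 2 in the Cpm part of the Mdm2 flank and 1 in Bcl2l1. The peaks with the highest and lowest ratios were picked for those ratios, so their sizes are descriptions. In the flanks alone, 255 of 1800 bins of 500 bp had at least 100 fragments, 13 being at least 1.5-fold higher and 7 at least 1.5-fold lower, where 9.0% and 2.90% of all 182074 such bins were. The higher bins were 5 at Mdm2, 4 at Bcl2, 2 at Mdm4 and 1 each at Bbc3 and Mcl1; the lower were 2 each at Trp53 and Bcl2l1 and 1 each at Bbc3, Bax and Mcl1. Adjoining bins can belong to 1 peak and are not separate observations.

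**Figure D5:**
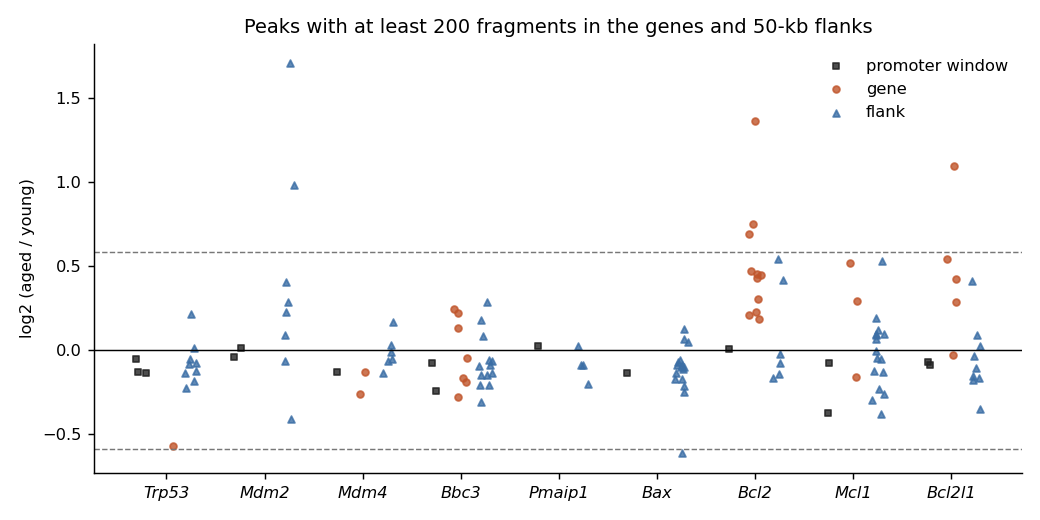
Log2 ratio of aged over young for the 131 peaks with at least 200 fragments, by gene and by place (promoter window, rest of the gene, 50-kb flanks). The dashed lines mark 1.5-fold. Peaks inside Bcl2 all lie above 0, up to 1.36, and the highest value, 1.71, is a flank peak of Mdm2.

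In the wider pathway no tested promoter was past 1.2-fold, where 8.94% of all promoters were higher and 3.34% lower. Among the 6032 promoters with at least 2000 fragments, only 17 were higher and 64 lower. Of 25 p53 target genes, among them Ccng1, Zmat3, Sesn1, Phlda3 and Fas, 24 were tested, 0 were higher and 0 lower, with a median of -0.05 and a range of -0.23 (Gdf15, a stress-induced secreted factor) to 0.15 (Fas, a death receptor). Cdkn1a, the p53 target that arrests the cell cycle, had 1.30 and 1.45 FPM at its annotated 5′ end and did not reach the minimum. Its gene body held 2572 fragments in young and 1932 in aged HSCs (-0.01), so the low value at the annotated end does not mean a closed gene. Of 20 regulators of p53, 19 were tested with 0 called and a median of -0.11, 17 lying below 0, among them the damage kinase gene Chek2 at -0.19 (-0.29 to -0.10). Below 0 were also 9493 of all 14267 promoters, and 5286 of the 6032 with the most fragments, whose median was -0.09. The other BH3-only genes (7 of 8 tested) had a median of -0.12, from Bad at -0.21 (-0.32 to -0.10) to Bik at 0.22 (0.03 to 0.40). The effectors Bak1 and Bok stood at -0.03 and 0.10. Of 5 further survival genes 2 were tested, Bcl2l2 at -0.02 and Bcl2a1d at 0.03. Of 11 caspases, caspase inhibitors and related death genes, which include the death-receptor caspase gene Casp8 at 0.09, 10 were tested, with 0 called and a median of -0.06, the lowest being Diablo and Birc3 at -0.21. The median over all promoters was -0.06. The scaling moved the background but not the calls of members. With all nuclear fragments as the total, 7.90% of all promoters were higher and 5.20% lower, and with promoter fragments as the total 11.3% and 1.89%, with 0 of 9 member promoters called in each. For gene bodies these scalings gave 8.42% and 5.50%, and 12.7% and 2.17%, with Bcl2 the 1 member called in each. With the promoter total 1 BH3-only gene passed the fold.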

How the data were processed

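Per the labels and the study's methods, the authors ran Cell Ranger ATAC against mm10 and Signac on 2 single-cell ATAC-seq libraries of sorted HSCs. The deposited fragment and barcode tables hold counts: coordinates and read support of each unique fragment, and read and fragment totals per barcode. Fragments were used as deposited. Cells were the barcodes called as cells with 3000 to 20000 in-peak fragments in the barcode table. Peaks were called here in each library against a local Poisson background and merged. Fragments overlapping promoters (1 kb on either side of the annotated start), gene bodies, 500-bp bins and peaks were divided by in-peak fragments, with a pseudocount of 1 fragment in ratios. Exact Poisson, binomial (Clopper-Pearson) and ratio intervals at 95% cover counting error only. With 1 library per age no test was possible.

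Features needed 200 fragments (bins 100), and calls a ratio of 1.2-fold (bins and peaks 1.5-fold). All members were named. Peaks chosen by rule were those with the most fragments outside each promoter window. The 5 peaks with the highest and the 5 with the lowest ratio were chosen too. Some of these were not described above. The most-fragment peak around Mdm2, in a Cpm intron 70501 bp from the Mdm2 start, stood at log2 0.23 (0.10 to 0.36). That of Pmaip1, in the upstream flank, stood at -0.09 (-0.28 to 0.11). Those around Bax and Mcl1 lay at the starts of neighbouring genes. The Bax flank peak, centred 200 bp from the Gys1 start, stood at -0.07 (-0.16 to 0.02). The Mcl1 flank peak, centred 112 bp from the Ensa start, stood at -0.12 (-0.21 to -0.03). Among the 5 lowest, a peak in the downstream flank of Mcl1 stood at -0.38 (-0.71 to -0.06). Other named peaks, bins, neighbours and pathway genes were chosen after their values were seen. Members and lists were chosen with earlier results of these data known. Likely doublets, 204 young and 250 aged cells marked by loci with 3 or more fragments, were kept in the main values. Counting and ratios were tested on simulated data. Alternatives covered scaling, cell limits, doublets, thinning, cut sites, short fragments, pseudocounts, windows and thresholds. Promoter sequences came from RefSeq (GRCm38.p6). Python 3.11.15, numpy 2.4.6, pandas 2.3.3, scipy 1.17.1, numba 0.67.0 and matplotlib 3.10.9 were used.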

Additional observations from a re-analysis of the deposited data

How the results depend on the processing

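No paired analysis was possible because each age had 1 library, and no replicate could be left out. Of the values that answer a comparison, 152 under an alternative stayed within their limits, 33 moved and 1 reversed, and the cause was not tested where the alternative's construction does not show it. The count of member promoters at least 1.2-fold lower went from 0 to 1 with a narrower range of in-peak fragments per cell (from 5000), with thinning to 3000, with short fragments and with 500 bp on either side of the start. Under the first 3 of these it was Bbc3, at -0.32, -0.48 and -0.35, and its promoter ran from -0.48 to -0.09 over 13 alternatives. The count of higher gene bodies went from 1 to 3 without the promoter window and to 0 at 1.5-fold. Higher flank bins numbered 13 of 255 tested (9.0% of all bins), but 3 of 192 with that narrower range (6.96%), 3 of 144 with thinning (5.0%), 22 of 309 with cut sites (11.9%), 8 of 155 with short fragments (6.14%), 31 of 384 with a minimum of 50 (13.3%), 4 of 162 with a minimum of 200 (4.76%) and 4 of 255 at 2-fold (2.59%). Of the same bins 7 were lower (2.90%), but 2 (2.86%), 3 (2.32%) and 14 (4.78%) under the first 3 of these, and 16 (5.0%), 1 (1.55%) and 0 (0.536%) under the last 3. With promoter fragments as the total and with the median promoter at 0, list medians were -0.00265 and (reversed) 0.00289 for p53 targets, -0.0587 and -0.0532 for p53 regulators, 0.0571 and 0.0627 for other survival genes, and -0.0126 and -0.00704 for the caspases and related genes; the BH3-only list had 1 higher gene under both. With all nuclear fragments as the total, the other survival genes had -0.0266 and 1 p53 target was lower. The median difference in the share of cells with a promoter fragment became 0.203 percentage points without thinning, and the members with separate intervals went from 1 to 0 without thinning and with 5000 fragments. The Bcl2 body ratio ran from 0.40 to 0.49 over 12 alternatives. Local background was the fragment density in the outermost 5 kb of each 50-kb flank, which can hold peaks of neighbouring genes. At Bcl2 it held the Kdsr start and at Mdm2 a Cpm intron peak. Subtracting it left nothing in these 2 bodies, so it gave no value for them or for the median of the bodies. That does not show that their signal was at background. The subtraction moved the bodies of Bax to -1.53, Bcl2l1 to 1.003 and Mdm4 to -0.41. These rest on as little as 9.78% (Bax, aged), 17.2% (Bcl2l1, young) and 21.5% (Mdm4, aged) of their fragments.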

Other observations

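A 5-kb bin centred 42.5 kb upstream of Mdm2 had 139 fragments in young and 46 in aged HSCs, a log2 ratio of -1.17 (-1.70 to -0.70), the lowest of the bins around Mdm2. The Bcl2l1 downstream flank held a peak of 28.3 and 37.6 FPM (0.41, 0.28 to 0.54) and, nearby, another of 13.6 and 10.7 FPM (-0.35, -0.57 to -0.14). Both were chosen after their values were seen.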
